A study of Homo sapiens with 9 samples.

Results

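Toll-like receptors and the NF-kB pathway formed the set of genes described here, measured in the human glioblastoma line LN229, an established cell line, before and after sodium formate. The set was a list of 43 gene symbols whose rule used no measured value, although it was drawn up with earlier results of these data known. Of these, 41 had a row in the deposited table of 23727 genes and 40 passed the filter on low counts, which left 15273 genes. TLR2 and TLR9 were not analysed here, and CD14 did not pass the filter. All 41 genes had at least a single count in every library. RNA sequencing gave 9 libraries in 3 groups of 3, untreated cells at 0 h, cells given 500 µM sodium formate for 8 h and cells given it for 24 h. All groups grew in glucose (17 mM), glutamine (2 mM) and 10% serum, and formate, the simplest carboxylate, donates carbon units to folate metabolism. The growth protocol names the line LN229, whereas the source label spells it LN299. All untreated libraries were taken at 0 h, so formate and time in culture cannot be told apart. The labels do not say whether replicates came from separate cultures, so p-values measure only the spread between these libraries.

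Toll-like receptors are membrane proteins that bind microbial molecules such as lipopolysaccharide, flagellin or double-stranded RNA. Together with the receptors of interleukin-1 and TNF they signal through adaptors, kinases and ubiquitin ligases to the IKK complex, which marks the IkB inhibitors for destruction and so frees NF-kB dimers to enter the nucleus. NF-kB raises its own inhibitors along with adhesion molecules, cytokines and survival genes, and in glioblastoma its activity is known from the mesenchymal state and from invasion. Much of this control acts on protein, and messenger RNA was the only readout here.

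The promoters of 3 genes on which the results turn are shown, since 2 of these genes changed in opposite directions and the other is the classical feedback target of NF-kB. Each line is a RefSeq window on GRCh38.p14, from 250 bases before to 50 bases after the annotated start, written 5′ to 3′ on the strand of the gene. The windows are chr19:10270870-10271169 on the plus strand for ICAM1, chr11:102317234-102317533 on the plus strand for BIRC3 and chr14:35404700-35404999 on the minus strand for NFKBIA. Capitals mark matches to the kB consensus, the degenerate 10-letter site of NF-kB, or to GGAANTTCC, its palindromic core, and the motifs can overlap each other.
ICAM1: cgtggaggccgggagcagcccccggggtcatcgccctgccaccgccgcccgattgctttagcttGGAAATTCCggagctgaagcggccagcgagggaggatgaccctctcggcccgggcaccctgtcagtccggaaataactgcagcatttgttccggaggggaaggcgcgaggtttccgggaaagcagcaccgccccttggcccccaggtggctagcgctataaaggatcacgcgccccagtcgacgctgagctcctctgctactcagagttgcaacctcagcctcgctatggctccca
BIRC3: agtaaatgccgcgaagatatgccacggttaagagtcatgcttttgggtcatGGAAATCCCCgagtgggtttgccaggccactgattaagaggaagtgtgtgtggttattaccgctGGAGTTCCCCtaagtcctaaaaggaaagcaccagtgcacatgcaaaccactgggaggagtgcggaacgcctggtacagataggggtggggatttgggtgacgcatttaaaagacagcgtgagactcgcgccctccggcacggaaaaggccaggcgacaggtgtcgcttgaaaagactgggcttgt
NFKBIA: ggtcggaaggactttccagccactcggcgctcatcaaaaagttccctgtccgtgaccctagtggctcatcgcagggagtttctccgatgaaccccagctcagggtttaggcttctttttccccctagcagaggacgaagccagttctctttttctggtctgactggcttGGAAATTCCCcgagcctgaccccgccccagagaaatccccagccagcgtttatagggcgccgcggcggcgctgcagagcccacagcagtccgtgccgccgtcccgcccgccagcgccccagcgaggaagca
Both strands were searched. ICAM1 held 1 match to GGAANTTCC, which begins 186 bases before the start, and none to the kB consensus. BIRC3 held 2 matches to the kB consensus, 199 and 135 bases before the start, both read on the strand opposite to the one printed. NFKBIA held 1 place that matches both motifs, 81 bases before the start. RefSeq windows were found for 37 of the 43 symbols, and TLR1, LY96, TIRAP, IKBKB, RELB and NFKBIE had none. The kB consensus was present in a window of 12 of these 37 genes, against 13.3% of all 27305 genes, and GGAANTTCC in 6 of 37, against 1.16% of all genes. By window, the kB consensus was in 14 of the 53 windows of these genes (26.4%) and in 11.3% of all 35116, and GGAANTTCC in 6 of 53 (11.3%) and in 0.965% of all. A match is a string of letters in these windows and not a measured binding site.

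Total counts lay between 22222298 and 25848242 per library, so that 3 counts corresponded to 0.116 to 0.141 CPM, the depth-scaled count used throughout, here with TMM factors. Untreated replicate 1 stood apart from the other untreated libraries. It was the highest or the lowest of its group for 37 of the 40 tested genes (92.5%), as it was for 85.3% of all tested genes. In a group of 3, a library holds such a place for most genes even without any difference. Replicate 1 held it at 8 h for 82.5% of the 40 and 76.5% of all, and at 24 h for 72.5% and 78.0%. The fit with the replicate number as a block, which compares same-numbered libraries, and a fit without all libraries numbered 1 are therefore given beside the results that they change. VIM, NES, CD44, SOX2 and EGFR, markers of glioma cells, were present in every library, and GFAP, the astrocyte filament, stayed between 0.129 and 0.425 CPM. At 24 h against 0 h, S100B and SLC1A3, astrocyte markers of the same list of 8, rose by 1.38 and 1.58 on the log2 scale (edgeR adjusted p = 0.0460 and 0.0277), and VIM and CD44 fell with the block (edgeR adjusted p = 0.00858 and 0.0069), and their part in the results was not tested. Of 8 macrophage and microglia markers 4 were analysed, none passed the filter, and their summed level was 0.169 to 0.383 CPM. None of 4 T cell markers was analysed here, and the 3 epithelial markers summed to 0.128 CPM at most.

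The receptors that sense microbial products differed widely in level. Per kilobase of exon, TLR4, the receptor of lipopolysaccharide, had the highest level of the 5 analysed Toll-like receptors at 0 h, 6.52 CPM per kb (SD 1.14, n = 3). TLR6 followed at 2.92 ± 0.783, TLR3, the receptor of double-stranded RNA, at 0.787 ± 0.259, TLR1 at 0.257 ± 0.105 and TLR5, the receptor of flagellin, at 0.0736 ± 0.0308. The TLR1 and TLR6 genes are related paralogs, so reads could be split between them. LY96, which binds lipopolysaccharide together with TLR4, was present at 0.785 ± 0.285 CPM per kb, and CD14, which delivers lipopolysaccharide to them, at 0.148 ± 0.0579. Untreated cells thus held TLR4 messenger RNA with only low levels of its co-receptors' transcripts. Among receptors of cytokines, TNFRSF1A, the main receptor of TNF, stood at 39.4 ± 2.66 CPM per kb, and IL1R1, the receptor of interleukin-1, at 2.98 ± 0.814.

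Downstream of the receptors the levels spanned a wide range. IRAK1, a kinase recruited by MYD88, had the highest level of the whole set, 147 ± 37.5 CPM per kb at 0 h. RELA, the main activating subunit of NF-kB, stood at 24.4 ± 3.0, TBK1, a kinase of the interferon branch, at 15.8 ± 0.711, NFKB1, the precursor of the p50 partner of RELA, at 14.3 ± 0.945 and MYD88, the adaptor of most of these receptors, at 10.9 ± 0.198. NFKBIB, an inhibitor of NF-kB, stood at 11.7 ± 2.75 and overlapped in its range with BCL3 at 10.5 ± 1.32. ICAM1, an adhesion molecule for leukocytes, stood at 5.31 ± 0.300, and BIRC3, a ubiquitin ligase that restrains cell death, at 0.436 ± 0.0484. The plot of levels by role shows every library.

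**Figure D1:**
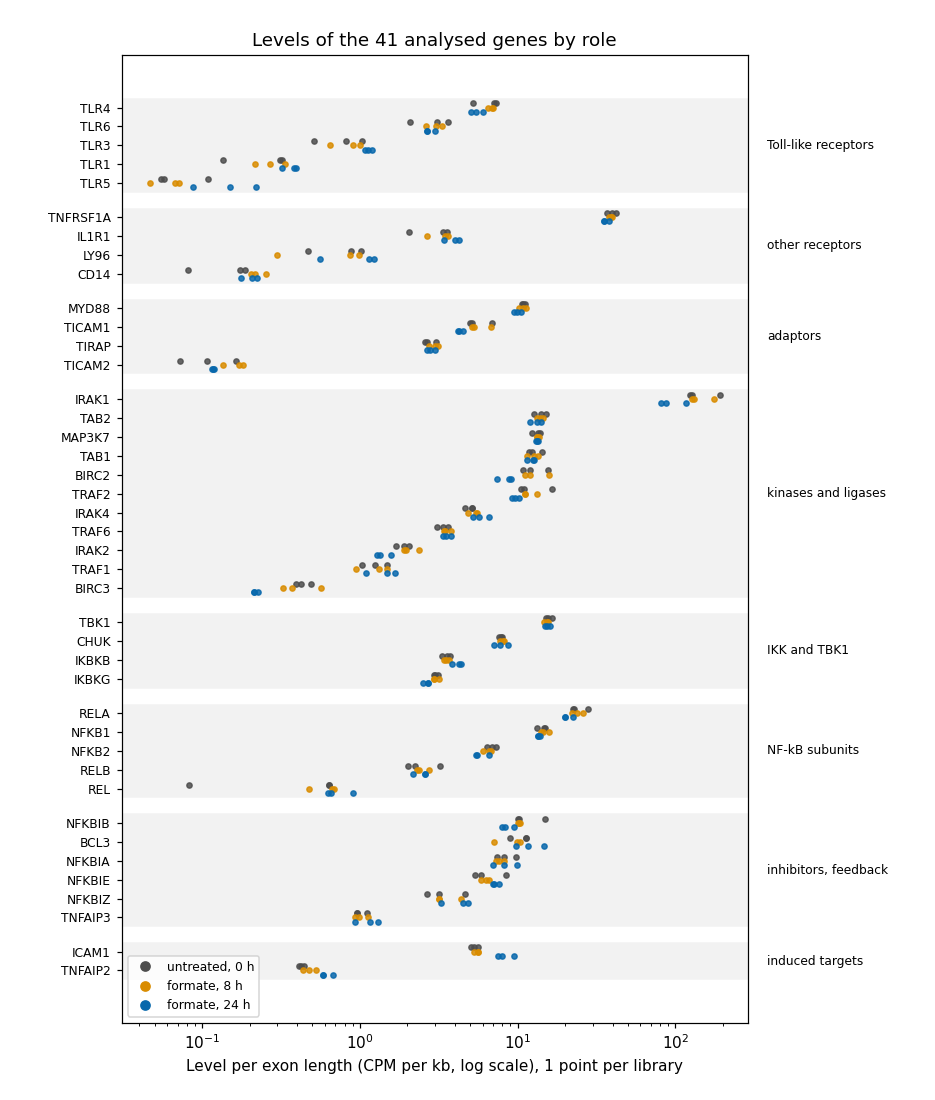
Levels of the 41 analysed genes in CPM per kb of exon on a log axis, with 1 point per library, coloured by group and sorted by level within 8 groups of roles. By group mean, which is not drawn, IRAK1 lies highest in all 3 groups, TLR5 lowest at 0 h and 8 h and TICAM2 lowest at 24 h. The lowest single point of 24 h belongs to TLR5, and the left-most point of REL is untreated replicate 1.

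At 8 h of formate no gene of the set passed the test. None of 40 reached an adjusted p under 0.05 with edgeR's quasi-likelihood test, and neither did any of all 15273 tested genes (0%). At an unadjusted p under 0.05 the set had 0 of 40 and all genes 0.517%, while the block fit gave 1 gene, BCL3, against 1.01% of all genes. DESeq2 called none of the set either. In no gene of the set did the 8 h libraries lie wholly apart from the untreated ones, against 3.31% of all tested genes. The fitted log2 changes ran from -0.27 in TLR5 to 0.49 in TICAM2, with a median of 0.01, and 21 of the 40 were above 0, against 43.3% of all genes. The median standard error of the set was 0.16 on the same scale.

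At 24 h of formate, 2 genes of the set passed the test against 0 h, ICAM1 upward and BIRC3 downward. That was 5.0% of the 40, against 4.25% of all tested genes (2.47% higher, 1.77% lower), so the set's share was near the background. The fitted changes were balanced, with 20 genes above 0 and 20 below, where 50.9% of all genes lay above 0. Their median was -0.01 on the log2 scale, beside 0.01 for all genes, and their median size was 0.22, beside 0.23. The libraries of 24 h and 0 h did not overlap for 14 of 40 genes (35.0%), against 30.3% of all genes. With the replicate block, 11 of 40 passed (27.5%), against 24.1% of all genes (12.6% higher, 11.6% lower). The genes that rose in that fit were TLR5, IL1R1, TNFAIP2 and ICAM1, and those that fell were TICAM1, IRAK1, IRAK2, TRAF2, BIRC2, BIRC3 and NFKBIB. Leaving out all libraries numbered 1 gave 8 genes (20%), against 16.9% of all genes in that fit. TLR4, IRAK1, BIRC2, BIRC3 and NFKBIB were lower in it and IKBKB, NFKBIE and ICAM1 higher. DESeq2 called IRAK1, BIRC2, BIRC3 and ICAM1, 4 of the 38 genes it gave an adjusted p (10.5%), against 11.8% of all such genes. Without the block and without replicate 2 or replicate 3 of 24 h, 0 genes of the set and 0 of all genes passed. The count was 1 without untreated replicate 3, replicate 3 of 8 h or replicate 1 of 24 h. In that order, 418, 284 and 899 of all genes passed. Without replicate 1 of 8 h the count was 3, beside 765 of all genes.

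**Figure D2:**
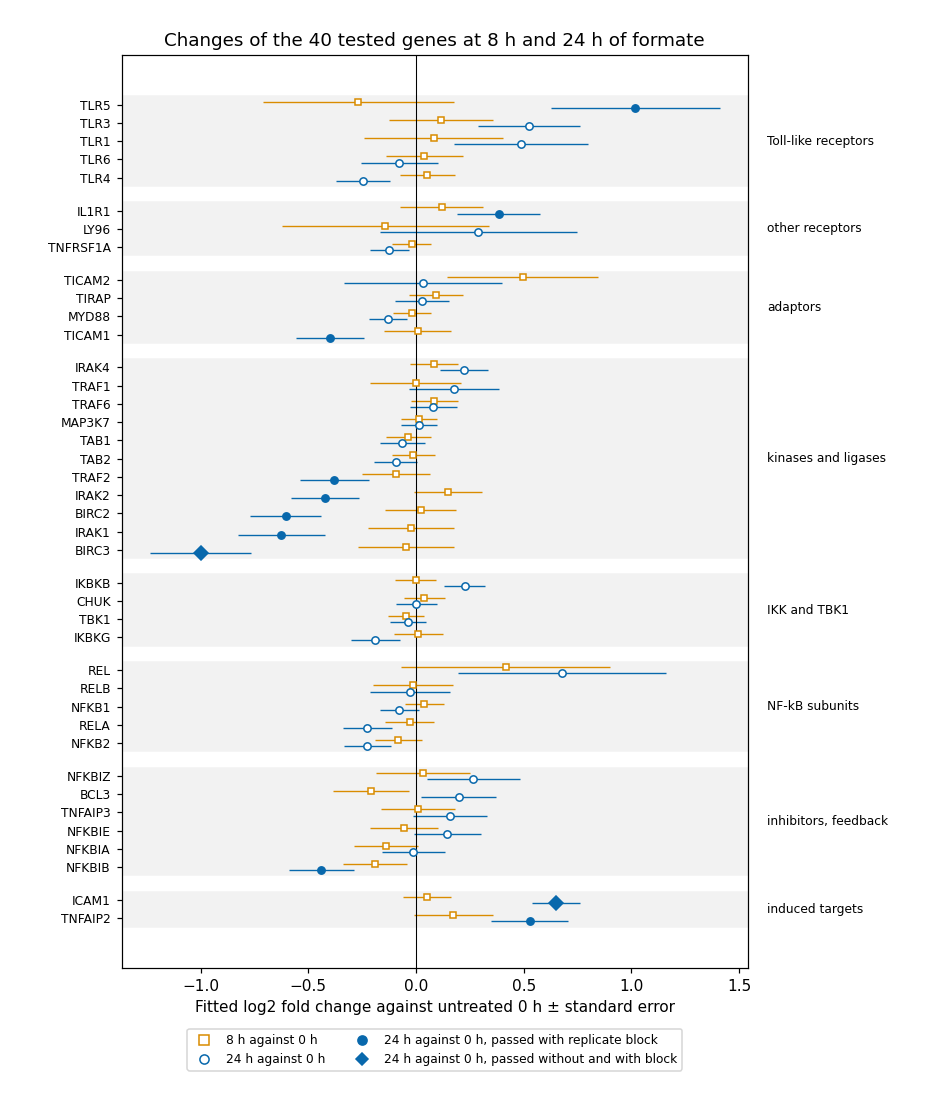
Fitted log2 fold change against untreated 0 h for the 40 tested genes, with bars of 1 standard error, at 8 h (squares) and 24 h (circles and diamonds), by role. Filled symbols passed at an adjusted p under 0.05 with the replicate block, and the diamonds, ICAM1 and BIRC3, passed in both fits.

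ICAM1, which lies on chromosome 19 at 10270835 to 10286615 (GRCh38, plus strand), encodes the adhesion molecule that binds leukocyte integrins and is a textbook target of NF-kB. This start is that of GENCODE 29 and lies before the RefSeq start used for the printed window. The whole window, with its GGAANTTCC match, therefore falls inside the interval given here. The untreated libraries held 18.7, 20.9 and 19.5 CPM for replicates 1, 2 and 3, and those of 8 h 20.8, 19.6 and 20.9. At 24 h the libraries held 29.5, 27.9 and 35.3 CPM. All 3 libraries of 24 h were above all 6 others, and the groups of 0 h and 8 h overlapped. The mean rose from 19.7 ± 1.11 to 30.9 ± 3.89 CPM (SD, n = 3 each), 1.57-fold, with a fitted log2 change of 0.65 (standard error, SE, 0.11) and an edgeR adjusted p of 0.0199, or 0.00136 with the block. Without replicate 2 of 24 h the edgeR adjusted p was 0.102 at a log2 change of 0.71, and without replicate 3 of 24 h it was 0.112 at 0.54. Other genes on the opposite strand cover 23.6% of the ICAM1 exons, and the strand setting of the counts is not given in the sources used here. VWF, a marker of endothelial cells, which also carry ICAM1, was between 0.308 and 0.566 CPM at 0 h and between 1.04 and 1.58 at 24 h (log2 change 1.60, edgeR adjusted p = 0.0304). TIE1, another endothelial marker, went from a mean of 1.06 to 0.519 CPM (log2 change -1.02, edgeR adjusted p = 0.115 without the block, 0.0409 with it), while PECAM1 was at 0.133 CPM at most in any library. The 3 analysed endothelial markers of 4 listed summed to 1.39 to 1.68 CPM at 0 h, 0.953 to 1.84 at 8 h and 1.34 to 2.40 at 24 h, and their part in the ICAM1 result was not tested. In bulk RNA, more cells with a transcript and more of it per cell cannot be told apart.

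TNFAIP2, a gene induced by TNF, shares with ICAM1 the role named other induced targets and is much less abundant. Targets of NF-kB also stand in other roles of the set, such as NFKBIA, whose log2 change at 24 h was -0.01. TNFAIP2 was at 2.22, 2.12 and 2.08 CPM at 0 h, 2.18, 2.41 and 2.64 at 8 h and 2.92, 2.93 and 3.4 at 24 h. The 24 h libraries lay above all others. The log2 change of TNFAIP2 from 0 h was 0.53 (SE 0.18), with an edgeR adjusted p of 0.105 without the block and 0.0423 with it. The block call was kept in the fit without untreated replicate 1 and lost in the other 8 that left out 1 library (edgeR adjusted p up to 0.159).

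BIRC3 and BIRC2 are cellular inhibitors of apoptosis, ubiquitin ligases that work with TRAF2 beneath the TNF receptor and that hold down the alternative NF-kB route. They are neighbours on chromosome 11, BIRC3 at 102317450 to 102339403 and BIRC2 at 102347211 to 102378670 (GRCh38, both on the plus strand), 7.81 kb apart. BIRC3 was at 3.68, 3.20 and 2.97 CPM at 0 h and at 4.27, 2.45 and 2.81 at 8 h. At 24 h it was at 1.61, 1.60 and 1.70 CPM, below all 6 other libraries. Its mean fell from 3.28 ± 0.364 to 1.63 ± 0.0568 CPM, a log2 change of -1.0 (SE 0.23) with an edgeR adjusted p of 0.0393, or 0.00514 with the block. That call was lost in 7 of the 9 fits that each left out 1 library: it stayed without replicate 1 or replicate 2 of 8 h, and the edgeR adjusted p in the 9 fits ran from 0.0254 to 0.152, with log2 changes from -1.07 to -0.93. With the block, each of those 9 fits kept it past the threshold, with the highest adjusted p at 0.0308.

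BIRC2 had the same direction. It was at 70.9, 48.8 and 54.1 CPM at 0 h, at 71.4, 50.3 and 54.5 at 8 h and at 40.9, 39.7 and 33.6 at 24 h. Replicate 1 was the highest in all 3 groups, and no 24 h library reached any of the others. The log2 change from 0 h was -0.60 (SE 0.16), with an edgeR adjusted p of 0.0600 without the block, 0.00251 with it, and all 9 block fits that left out 1 library kept the call.

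IRAK1 and its relatives carry the signal of the adaptor MYD88. IRAK1 was at 761, 497 and 507 CPM at 0 h, at 706, 509 and 521 at 8 h and at 468, 350 and 325 at 24 h. Replicate 1 was again the highest of each group, and all 24 h libraries were below all others. The log2 change from 0 h was -0.63 (SE 0.20), and the edgeR adjusted p was 0.0929 without the block, 0.000521 with it. Without untreated replicate 1 the change was -0.41 without the block and -0.59 with it, and all 9 block fits that left out 1 library kept the call. IRAK2, a related kinase that sustains the response, was at 7.12, 6.58 and 5.93 CPM at 0 h, 8.26, 6.65 and 6.85 at 8 h and 5.5, 4.49 and 4.64 at 24 h. Its log2 change from 0 h was -0.42 (SE 0.16), with an edgeR adjusted p of 0.130 without the block and 0.0313 with it. The block call was kept without untreated replicate 1 or replicate 1 of 8 h and lost in the other 7 fits that left out 1 library (edgeR adjusted p up to 0.159). IRAK4, which phosphorylates IRAK1, had a log2 change of 0.22 (SE 0.11) and passed in neither fit, although its 24 h libraries (29.3, 36.8 and 32 CPM) were above the untreated ones (26.1, 29 and 28.9).

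TRAF2, a ligase of the TNF receptor complex, was at 60.1, 39.9 and 38.4 CPM at 0 h, at 48.4, 40.6 and 40.6 at 8 h and at 37.4, 35.2 and 33.6 at 24 h. The 24 h libraries were the lowest, and untreated replicate 1 lay far above the other untreated libraries. The log2 change from 0 h was -0.38 (SE 0.16), with an edgeR adjusted p of 0.163 without the block and 0.0327 with it. Without untreated replicate 1 the change was -0.16, or -0.23 with the block (edgeR adjusted p = 0.0430), and without all libraries numbered 1 it was -0.19 (edgeR adjusted p = 0.127). The block call was lost in 4 of 9 fits, those without replicate 2 or 3 of 8 h or replicate 1 or 3 of 24 h (edgeR adjusted p up to 0.162, at a change of -0.25 without replicate 1 of 24 h). Among all 11 kinases and ubiquitin ligases between receptor and IKK, 7 had a log2 change below 0 at 24 h. BIRC3 passed in both fits, and IRAK1, IRAK2, TRAF2 and BIRC2 passed with the block only, all downward. So 5 of 11 fell with the block, beside 7 of 40 over the set (17.5%) and 11.6% of all tested genes. This is 1 of 8 roles, and no role was tested as a group. The other 6 of these 11 genes, IRAK4, TRAF1, TRAF6, TAB1, TAB2 and MAP3K7, passed in neither fit. TAB1 and MAP3K7, which join TAB2 in the kinase complex that activates IKK, had log2 changes of -0.07 and 0.01. TRAF6 has a pseudogene copy, so its counts are uncertain.

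**Figure D3:**
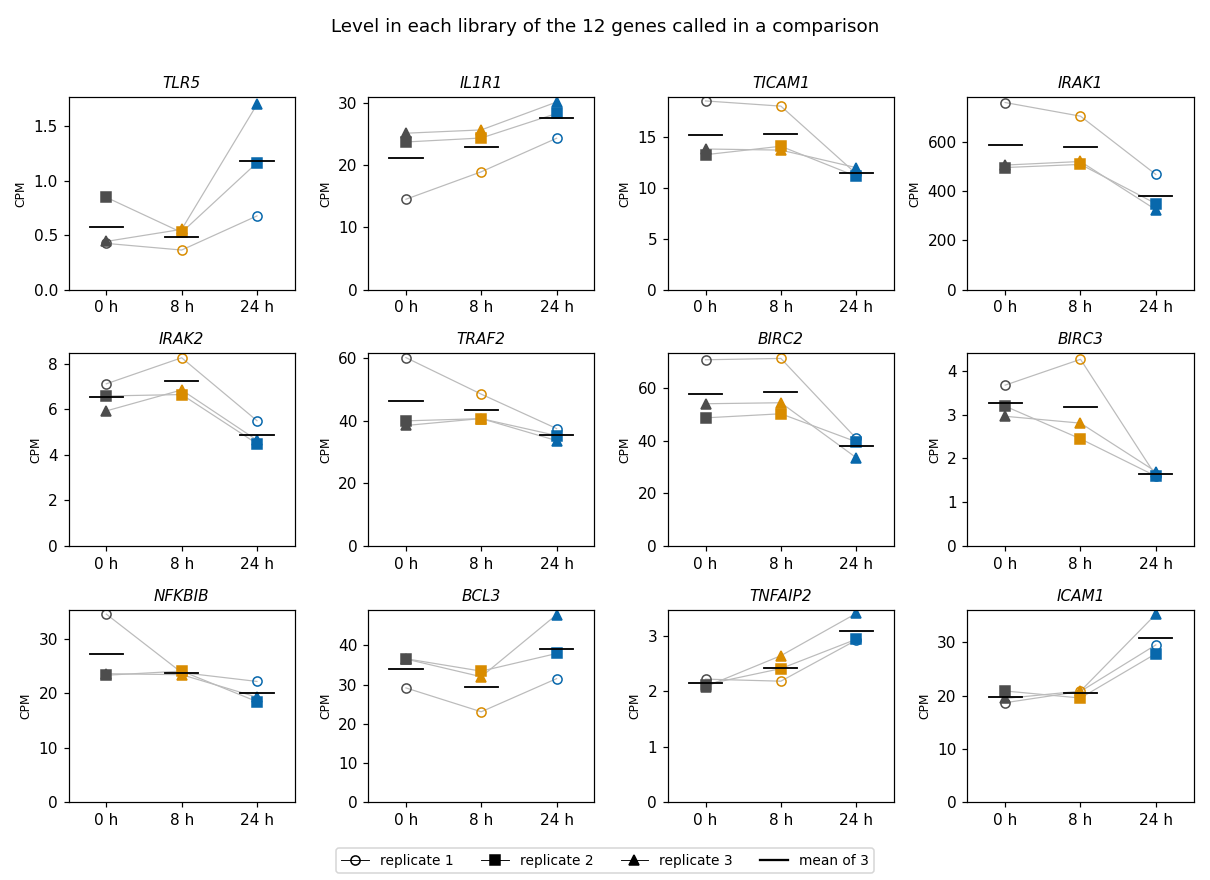
CPM in each of the 9 libraries for the 12 genes that passed in any comparison without or with the replicate block, on linear axes from 0, with grey lines joining libraries of the same replicate number and bars at group means. BCL3 is shown because it passed only between 8 h and 24 h with the block, and ICAM1 and TNFAIP2 show all 24 h libraries above the rest.

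TLR5 and IL1R1 were the receptors that passed with the block. TLR5 was at 0.424, 0.847 and 0.443 CPM at 0 h, at 0.363, 0.525 and 0.553 at 8 h and at 0.677, 1.17 and 1.70 at 24 h. Replicate 1 of 24 h lay below untreated replicate 2, so the groups overlapped. The log2 change from 0 h was 1.02 (SE 0.39), with an edgeR adjusted p of 0.138 without the block and 0.0371 with it, and replicate 1 rested on 9 counts at 0 h and 16 at 24 h. The block call was kept without untreated replicate 1 or 2 or replicate 2 of 24 h and lost in the other 6 fits that left out 1 library. Leaving out untreated replicate 3 or replicate 3 of 24 h in the block fit gave log2 changes of 0.61 and 0.64 (edgeR adjusted p = 0.220 and 0.209), and leaving out the latter gave 0.65 in the fit with no block. The change was 1.13 (edgeR adjusted p = 0.0640) when all libraries numbered 1 were left out. IL1R1 was at 14.5, 23.7 and 25.1 CPM at 0 h, at 18.9, 24.4 and 25.7 at 8 h and at 24.3, 28.3 and 30.1 at 24 h. It was higher at 24 h in each same-numbered pair although the groups overlapped, with a log2 change of 0.38 (SE 0.19) and an edgeR adjusted p of 0.224 without the block, 0.0186 with it. Without untreated replicate 1 the log2 change was 0.16, and without all libraries numbered 1 it was 0.26 (edgeR adjusted p = 0.0690). The block call was lost without replicate 1 of 24 h (edgeR adjusted p = 0.0847). TLR4 was at 69.1, 94.2 and 96.2 CPM at 0 h, 85.6, 90.8 and 92.7 at 8 h and 79.5, 72.2 and 67.1 at 24 h. Its groups of 0 h and 24 h overlapped through untreated replicate 1 alone, and it passed in neither fit over all 9 libraries (log2 change -0.25, SE 0.13), but did so without the libraries numbered 1. TNFRSF1A was at 168, 158 and 147 CPM at 0 h, 157, 159 and 152 at 8 h and 152, 141 and 141 at 24 h, and it passed in neither fit.

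Of the 4 adaptors, TICAM1, which links TLR3 and TLR4 to the interferon branch, passed at 24 h with the block. It was at 18.5, 13.3 and 13.8 CPM at 0 h, at 18.0, 14.1 and 13.7 at 8 h and at 11.4, 11.1 and 12 at 24 h. The 24 h libraries were below all others, with a log2 change from 0 h of -0.40 (SE 0.16) and an edgeR adjusted p of 0.143 without the block, 0.0382 with it. The change was -0.25 without untreated replicate 1, and -0.22 without all libraries numbered 1 (edgeR adjusted p = 0.190). The block call was kept without untreated replicate 3, replicate 1 of 8 h or replicate 3 of 24 h and lost in the other 6 fits that left out 1 library, where without replicate 1 of 24 h the change was -0.24 (edgeR adjusted p = 0.167). MYD88 was at 43.1, 42.7 and 44.2 CPM at 0 h, 44.8, 40.7 and 42.9 at 8 h and 41.9, 39.4 and 37.6 at 24 h. Those of 24 h were all below those of 0 h, yet the log2 change of -0.13 (SE 0.09) passed in neither fit. TIRAP, the bridge between TLR4 and MYD88, had a log2 change of 0.03, with 22.5% of its exons overlapped on the opposite strand. TICAM2, the bridge between TLR4 and TICAM1, had one of 0.03 as well, and 82.2% of its exons are shared with the read-through gene TMED7-TICAM2, so its counts are uncertain.

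The IKK complex and the NF-kB subunits had no gene that passed at 24 h over all 9 libraries, without or with the block. CHUK and IKBKB, the catalytic subunits of IKK, had log2 changes of 0.00 and 0.23 (IKBKB passed without the libraries numbered 1), and IKBKG, the regulatory subunit, one of -0.19. IKBKG has a pseudogene copy, so its counts are uncertain. TBK1 was at 71.9, 78.6 and 74.6 CPM at 0 h, 70.1, 74.6 and 73.1 at 8 h and 72.7, 76.0 and 70.5 at 24 h, with 14.7% of its exons overlapped on the opposite strand. RELA was at 152, 123 and 125 CPM at 0 h, 142, 130 and 120.2 at 8 h and 123, 109 and 109 at 24 h. The groups overlapped for both genes, and RELA had a log2 change of -0.23 (SE 0.11) from 0 h. NFKB1 and NFKB2, the precursors of the p50 and p52 proteins, had changes of -0.08 and -0.23, and RELB, their partner in the alternative route, one of -0.03.

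REL, the subunit best known from lymphocytes, had an untreated library unlike all others, which was singled out after its values were seen. It was at 1.08, 8.39 and 8.41 CPM at 0 h, at 8.81, 8.97 and 6.30 at 8 h and at 8.29, 11.9 and 8.66 at 24 h. Untreated replicate 1 held 23 counts, where the other 8 libraries held 148 to 276, so that its CPM were 5.81-fold below the next lowest. Among the 10918 tested genes with a mean of at least 5 CPM, REL alone lay more than 4-fold below all other libraries in any library. The genes beside it on chromosome 2 did not stand apart there: PAPOLG was at 17.2 CPM in that library and at 16.2 to 22 in the others, and PEX13 at 20.6 and 20.3 to 24.2. The log2 change of REL at 24 h was 0.68 (SE 0.48, edgeR adjusted p = 0.381) with untreated replicate 1 and 0.18 (SE 0.20, edgeR adjusted p = 0.674) without it. Another gene on the same strand shares 43.3% of the REL exons, so reads could be split between them.

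Of the 6 inhibitors and feedback genes of NF-kB, 4 had a log2 change above 0 at 24 h against 0 h and 2 below, with a median of 0.15. They were not tested as a group. NFKBIB, an inhibitor that binds RELA dimers, was at 34.5, 23.3 and 23.6 CPM at 0 h, at 23.8, 24.1 and 23.4 at 8 h and at 22.2, 18.5 and 19.3 at 24 h. Its 24 h libraries were below all others, with a log2 change from 0 h of -0.44 (SE 0.15) and an edgeR adjusted p of 0.107 without the block, 0.0207 with it. Without untreated replicate 1 the change was -0.25, or -0.29 with the block (edgeR adjusted p = 0.0386), and the block call was lost without replicate 1 or 2 of 24 h (edgeR adjusted p = 0.0777 and 0.0696). NFKBIA, the inhibitor most quickly induced by NF-kB, was at 23.2, 17.5 and 19.3 CPM at 0 h, at 19.3, 18.0 and 17.2 at 8 h and at 23.5, 16.6 and 19.4 at 24 h. Its groups overlapped throughout, and the log2 change at 24 h was -0.01 (SE 0.15). TNFAIP3, a ubiquitin editor that ends the signal, had a log2 change of 0.16 (SE 0.17), and NFKBIE, a further inhibitor, one of 0.15 (SE 0.16). NFKBIZ and BCL3, nuclear proteins that act with NF-kB on its target genes, had changes of 0.27 and 0.20. Of these 6 genes, NFKBIB alone passed over all 9 libraries at 24 h against 0 h, and with the block only. Without the libraries numbered 1, NFKBIB and NFKBIE passed.

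**Figure D4:**
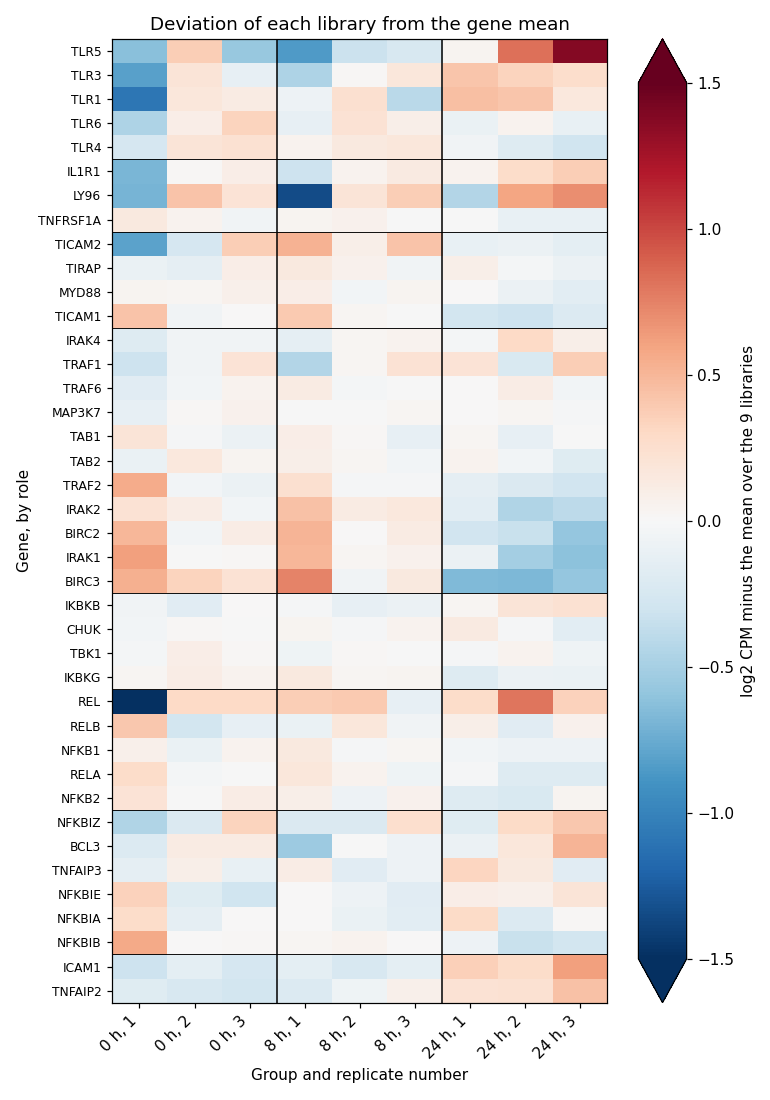
Log2 CPM of each of the 40 tested genes in each library minus the mean of that gene over the 9 libraries, with genes by role and libraries by group and replicate number, on a colour scale that ends at 1.5 in each direction. The first column, untreated replicate 1, holds the strongest colours of the untreated libraries, with a median size of 0.28 against 0.10 in each of the other two, and ICAM1 and BIRC3 change colour between 8 h and 24 h.

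Between 8 h and 24 h, ICAM1 rose and BIRC3 fell, and no other gene of the set passed. That was again 2 of 40 (5.0%), against 4.56% of all tested genes (2.84% higher, 1.72% lower). ICAM1 had a log2 change of 0.60 (SE 0.11, edgeR adjusted p = 0.0231), and BIRC3 one of -0.95 (SE 0.24, edgeR adjusted p = 0.0457). The ICAM1 call was lost without any 1 library of 8 h and without replicate 2 or 3 of 24 h, where its edgeR adjusted p was 0.110, 0.0552, 0.0684, 0.0917 and 0.126 in that order. The BIRC3 call was kept in the fits that left out untreated replicate 1 or replicate 2 of 8 h (edgeR adjusted p = 0.0196 and 0.0468) and lost in the other 7, with values up to 0.187. It was also lost without all libraries numbered 1 (edgeR adjusted p = 0.0587). DESeq2 called 5 of 38 genes (13.2%), against 10.3% of all genes, and the fit without all libraries numbered 1 called 9 of 40, against 19.9%. The libraries of 8 h and 24 h did not overlap for 17 of 40 genes (42.5%), against 34.3% of all genes. BCL3 was at 29.1, 36.6 and 36.5 CPM at 0 h, 23.1, 33.4 and 32.0 at 8 h and 31.5, 37.9 and 47.8 at 24 h, and the groups overlapped. The comparisons of 24 h with 0 h and with 8 h share their 24 h libraries.

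Other genes of the pathway were taken from a list of 68, of which 62 were analysed and 54 tested. At 8 h none passed. At 24 h against 0 h, 3 of 54 rose and 1 fell, beside 4.25% of all genes called in either direction. With the block 7 rose and 7 fell, beside 12.6% of all genes higher and 11.6% lower. The median log2 change was -0.02, beside 0.01 for all genes. For the 15 tested NF-kB target genes of the list the median was -0.24, and with the block 3 rose (SOD2, PTGS2 and IL1A) and 5 fell (CXCL8, CXCL1, LIF, BCL2L1 and GADD45B). PTGS2, the inducible cyclooxygenase, was at 3.54, 7.01 and 7.52 CPM at 0 h and 11.8, 15.3 and 13.1 at 24 h, with a log2 change of 1.15 (SE 0.25, edgeR adjusted p = 0.0314). SOD2, the mitochondrial superoxide dismutase and a target of NF-kB, rose by 0.49 on the log2 scale (SE 0.10, edgeR adjusted p = 0.0282), and it has a pseudogene copy and shares 5.12% of its exons with another entry of the same name. PELI2, a ubiquitin ligase of IRAK proteins, rose by 0.72 (SE 0.16, edgeR adjusted p = 0.0315). IL1RL1, the receptor of interleukin-33, was the gene that fell, from 2.45, 1.39 and 0.974 CPM at 0 h to 4, 3 and 1 counts at 24 h, with a log2 change of -3.76 (SE 0.59, edgeR adjusted p = 0.0170). At 24 h against 8 h, PELI2 and PTGS2 rose, and IL1RL1 and LIF, a cytokine, fell.

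The tested genes with and without the kB consensus in a promoter window had overlapping ranges of change. At 24 h against 0 h, 12 genes with the consensus had a median log2 change of -0.09, with 4 above 0 and 8 below, and 22 without it a median of -0.02, with 11 above and 11 below. With the block, 4 of the 12 fell, namely TICAM1, IRAK1, BIRC3 and NFKBIB, and none rose. Of the 22 without the consensus, 4 rose and 3 fell, where 12.6% of all tested genes rose and 11.6% fell in that fit. ICAM1, whose window holds GGAANTTCC, is among the 22 and rose. The genes with and without the consensus were not tested against each other. Of the 3 printed windows, that of ICAM1, with GGAANTTCC alone, belongs to a gene that rose, that of BIRC3, with the kB consensus, to one that fell, and that of NFKBIA, with both, to one whose log2 change was -0.01.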

How the data were processed

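The authors deposited raw counts per gene for the 9 libraries as whole numbers in a single table. The submitters' processing notes name bcl2fastq 2.20.0.422, STAR 2.7.4a and GRCh38. The counting program, its annotation and its strand setting are not given in the sources used here; the labels' protocols name a stranded mRNA kit and RNA with an integrity number above 9. Symbols were found for 23719 of 23727 genes, and positions and exon lengths came from GENCODE 29 on GRCh38.

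Low-count genes were dropped by filterByExpr. A model of group means over all 9 libraries was fitted in edgeR 4.0.16 (R 4.3.3), with TMM scaling and the quasi-likelihood test, two-sided, with Benjamini-Hochberg adjustment over all 15273 tested genes and a threshold of 0.05. The members, the lists and the rule for named genes were chosen with earlier results of these data known. By that rule, members past the threshold in any comparison, without or with the replicate block, are given by library, with the highest member per length of each role. Same-numbered libraries deviated together between 0 h and 8 h (r = 0.476, 0.432 and 0.414 over genes). They did so less evenly between 0 h and 24 h (0.367, 0.164 and 0.251) and between 8 h and 24 h (0.423, 0.0367 and 0.404). An unlike-numbered pair reached 0.27 between 0 h and 24 h, above the same-numbered 0.164 and 0.251. With every same-numbered r over 0.1 in the first 2 comparisons, the titles' numbers were taken to pair them. The pairing is less certain for 24 h against 0 h, and the block fit of 24 h against 8 h is an alternative only. DESeq2 1.42.0, its size factors, no filter, fits of the compared groups alone, the block and leaving out each library were alternatives. Leaving out each library with the block, and all libraries numbered 1, were added after seeing the data. The fitting step was tested on simulated data. Levels per kb divide CPM by exon length.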

Additional observations from a re-analysis of the deposited data

Results flagged for a closer look

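The response of 2 genes differed between 8 h and 24 h of formate, by the test of 24 h against 8 h. The untreated level cancels in the log2 change of that test. The untreated libraries still enter its filter, scaling and estimate of spread, and so its adjusted p. For ICAM1 the effect at 24 h exceeded that at 8 h by 0.60 on the log2 scale (edgeR adjusted p = 0.0231, higher in 3 of 3 libraries of 24 h than in any of 8 h). For BIRC3 the difference was -0.95 (edgeR adjusted p = 0.0457, lower in 3 of 3 libraries). No explanation was tested for either.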

How the results depend on the processing

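At 8 h against 0 h, no gene of the set and none of all genes passed under any alternative. At 24 h against 0 h, where 2 genes of the set and 649 of all genes passed, the replicate block gave 11 and 3687, DESeq2's own test 4 and 1656, a fit of the 2 groups alone 0 and 124, and a fit without all libraries numbered 1 gave 8 and 2616. At 24 h against 8 h, where 2 and 696 passed, the replicate block gave 8 and 3130, DESeq2's own test 5 and 1486, the 2 groups alone 6 and 1787, and leaving out all libraries numbered 1 gave 9 and 3072. The 8 genes passing between 8 h and 24 h with the block were TLR5, BCL3 and ICAM1 upward and TICAM1, IRAK1, IRAK2, BIRC2 and BIRC3 downward. Leaving out 1 library at a time gave 0 to 3 genes of the set and 0 to 899 of all genes at 24 h against 0 h, and 0 to 8 and 0 to 2545 at 24 h against 8 h. With the replicate block, leaving out 1 library gave 5 to 14 and 2213 to 3816 against 0 h, and 4 to 14 and 1179 to 5432 against 8 h. For the 12 named genes at 24 h against 0 h and against 8 h, 576 alternatives were counted. Of these, 417 kept direction and side of the threshold, 24 lost the call, 135 gained it and 0 reversed. The cause of these changes was not tested. The 12 genes were chosen because they passed without or with the block, and block fits are among the alternatives. Gains were thus partly fixed by that choice, and a gene that stayed short of the threshold counts as kept. The tally does not measure how robust the calls are. Scaling by DESeq2's size factors moved the median of all genes at 24 h against 0 h from 0.01 to 0.00 on the log2 scale. Genes such as TLR5, LY96, TICAM2 and CD14 lie near the floor of 3 counts, where counting error is largest.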
